A study of Mus musculus with 6 samples.

Results

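The genes described here encode parts of mitochondrial oxidative phosphorylation, and they were chosen by symbol, with earlier results of these data known. They are all genes whose symbol starts with Ndufa, Ndufb, Ndufc, Ndufs, Ndufv, Sdha, Sdhb, Sdhc, Sdhd, Uqcr, Cox4, Cox5, Cox6, Cox7, Cox8 or Atp5. The rule also takes in assembly factors named after a subunit, such as Ndufaf1 and Sdhaf1. It found 89 genes, read by 111 probes, of 16593 genes on the array. A gene was tested where a probe was above background (detection p under 0.05) on 3 or more of the 6 arrays, which left 81 of them among 9015 genes tested in all.

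The series holds 6 Illumina BeadChip arrays of total RNA from the mouse embryonic stem cell line E14. The 3 control samples are labelled wild type and were given a nonspecific shRNA. The 3 knockdown samples were given shRNAs against Tip5, the chromatin remodelling protein that the Baz2a gene encodes. All 6 came from 1 line, electroporated with pSuper vectors, selected with antibiotics for 6 days and harvested at passage 3 after transfection, in medium with LIF. For the knockdown, constructs carrying different selection markers were combined, so the antibiotics may differ between the groups. The labels put each passage after a separate transfection, but they do not say that the cultures were otherwise separate, and p-values measure the spread between these samples. The study's title sets chromatin architecture, self-renewal and pluripotency as its subject, and the comparison asks how transcript levels differ when Tip5 is lowered.

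Oxidative phosphorylation makes most of the ATP of a respiring cell. Complex I (NADH dehydrogenase) and complex II (succinate dehydrogenase) pass electrons to ubiquinone, complex III (cytochrome bc1) passes them on to cytochrome c, and complex IV (cytochrome c oxidase) hands them to oxygen. Complexes I, III and IV pump protons out of the matrix, and ATP synthase uses their return to make ATP. Mouse embryonic stem cells respire and also run glycolysis at a high rate, and several complex IV subunits have tissue isoforms that replace the common one in muscle, lung or testis. The subunits made from mitochondrial DNA were not analysed here, and neither was Sdha.

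Levels are log2 values after background correction and quantile normalization, so a difference of 1 is a doubling. Single genes are not compared with each other by level. The median raw signal of an array was 125.1 to 133.5 on replicates 1 and 2 of both groups, and it was 184.5 in control replicate 3 and 218.8 in knockdown replicate 3. The 6 pluripotency markers Pou5f1, Nanog, Sox2, Klf4, Esrrb and Zfp42 were detected on every array, with summed log2 levels of 70.4 to 71.9. A sum can hide opposite shifts. In the F test over replicate numbers used below, 3 of the 6 passed (50%, all genes 13.0%). Of 14 endoderm markers, 7 to 10 were detected on the other arrays and 13 in knockdown replicate 3. The 8 of them that were tested had a summed level of 81.9 in knockdown replicate 3, against 58.3 to 67.2 elsewhere. Of 13 fibroblast and feeder markers 3 to 6 were detected on each array. Thy1, Vim and Acta2 were detected on 6 arrays, Pdgfra on 3, Col3a1, Lum, Postn and S100a4 on 0, and the others on 1. Baz2a, the targeted gene, read 6.42, 7.51 and 5.99 on the control arrays (in replicate order, as in all lists below) and 5.21, 4.74 and 5.13 on the knockdown arrays. Its difference of -1.62 (SE 0.39, limma adjusted p = 0.203) did not pass the test, 1 knockdown array did not rise above background, and the exact permutation p of 0.1 is the smallest that 3 against 3 arrays allow.

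No oxidative phosphorylation gene passed the test of knockdown against control. Most transcripts of the pathway stood at close to the same level in both groups, among them Ndufv1, the NADH-binding subunit of complex I (difference 0.02, SE 0.16), and Cox4i1, a nuclear-encoded subunit of complex IV (0.04, SE 0.22). The widest difference was in Cox8c, a testis-type isoform of a complex IV subunit, at 42.7% of the control level (difference -1.23, SE 0.24, n = 3 per group). Cox8c was detected on all 6 arrays, but its raw knockdown signals of 139, 129 and 285 lay near the array medians of 129, 127 and 219. The size of its difference is therefore uncertain, at -1.57 to -0.47 over the alternatives tried. After it came Cox6a2, the heart and muscle isoform of another complex IV subunit (-0.83, SE 0.34), detected on 3 control arrays and 1 knockdown array, so that its difference is taken largely against background. Next was Atp5o, which encodes the protein joining the head of ATP synthase to its stator stalk (-0.68, SE 0.19). None of Cox8c, Cox6a2 and Atp5o passed, with limma adjusted p of 0.132, 0.448 and 0.259.

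The count was 0 of 81 genes at adjusted p under 0.05 in limma, where 0.0776% of all genes tested passed. With the replicate number as a block it was also 0 of 81, where 1.95% of all genes passed. At unadjusted p under 0.05 there were 3 genes, the same Cox8c, Cox6a2 and Atp5o, where 11.2% of all genes lay under that bound, and 8 with the block, where 22.8% did. With arrays weighted by their quality in limma, 3 genes passed, namely Cox8c, Atp5o and Atp5g1 (adjusted p = 0.00419, 0.0126 and 0.0412), all lower in the knockdown. Baz2a passed in that limma fit too (adjusted p = 0.0182). The share of all genes passing in it is not given here, so this count has no background beside it. The groups did not overlap in 8 of the 81 genes, where 17.0% of all genes had groups apart. Of those 8 genes, 5 were lower on all knockdown arrays (all genes 8.00%), namely Ndufaf5, Ndufs8, Cox8c, Atp5g1 and Atp5o. The other 3, Sdhaf1, Cox6b2 and Atp5e, were higher on all of them (all genes 8.96%).

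The median fitted difference was -0.03, against 0.02 over all genes tested. Differences were above 0 in 35 genes (43.2%) and below 0 in 46. Over all genes tested 52.8% were above 0, which is the background for every such split below. The split of these 81 genes depends on the scaling. With medians aligned in place of quantiles, 16 were above 0 and 65 below, with a median of -0.13 against 0.01 over all genes. The median absolute difference was 0.089 on the log2 scale against 0.207 over all genes. In 59 of 81 genes the difference was smaller than 0.2 (72.8%), where 48.8% of all genes were. A difference of more than 1.5-fold was measured in 3 genes (3.70%), where 11.9% of all genes exceeded it. The median SE of these genes was 0.188 against 0.240. These genes also read brighter than most, with a median log2 level of 11.9 against 8.05 over all genes tested. How far brightness accounts for their smaller differences, SEs and intervals was not tested. Because the cells were measured in bulk, fewer cells of a type and less RNA per cell cannot be told apart.

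**Figure D1:**
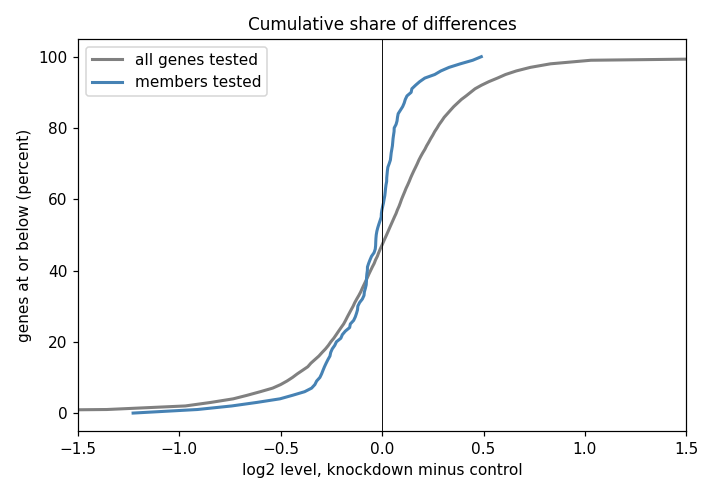
Cumulative share of genes (vertical axis, percent) at or below a given log2 difference of knockdown minus control (horizontal axis), for the 81 oxidative phosphorylation genes and for all 9015 genes tested. The line of the oxidative phosphorylation genes climbs more steeply around 0, where 72.8% of these genes lie within 0.2 of no difference, against 48.8% of all genes. These sets were not matched for level.

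The interval of a difference shows how much could have been missed. The 95% confidence interval lay inside 2-fold in either direction for 70 of the 81 genes (86.4%), where this held for 69.2% of all genes. It lay inside 1.5-fold for 47 of the 81, where this held for 1593 of all 9015 genes tested. Genes outside the 2-fold bound include some that differ widely between replicate numbers, such as Ndufb10, whose interval was narrower with the replicate block.

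**Figure D2:**
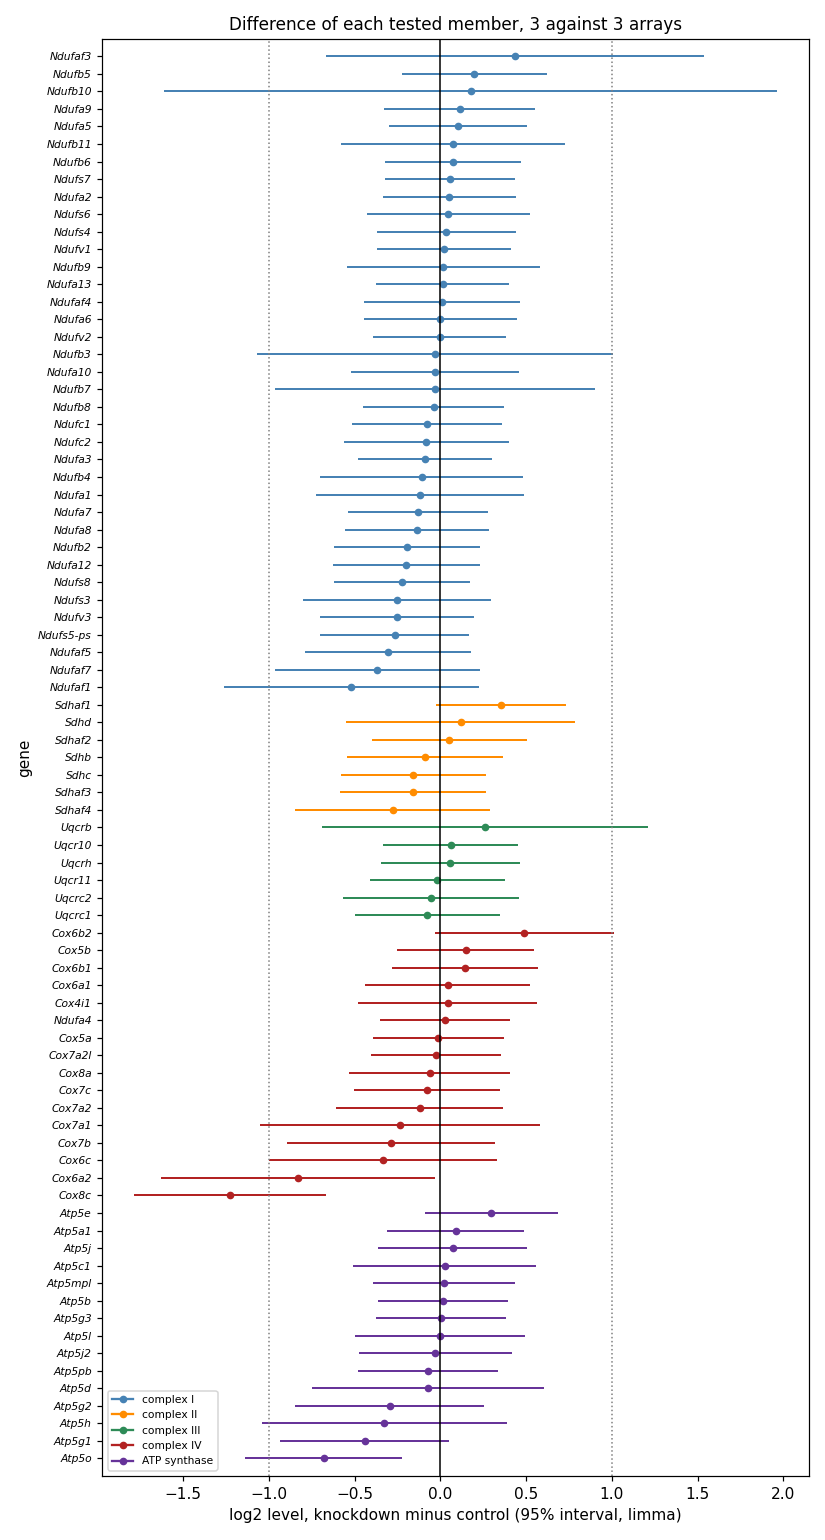
Log2 difference of knockdown minus control (horizontal axis) with its 95% confidence interval for each of the 81 oxidative phosphorylation genes tested, grouped by complex. Points gather around 0, and Cox8c, Cox6a2 and Atp5o lie farthest to the left, at -1.23, -0.83 and -0.68.

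Complex I takes electrons from NADH and is the largest assembly of the chain. Of its 39 listed genes 37 were tested, with 16 differences above 0, 21 below and a median of -0.03 (range -0.52 to 0.44). The core subunits, most of which bind the flavin or iron-sulfur clusters, were 5 of 6 tested, with a median of -0.005. Ndufv1, the subunit that binds NADH, measured 13.05, 12.96 and 12.87 in controls and 13.03, 13.01 and 12.91 in the knockdown. The arrays of both groups interleaved, and the difference was 0.02 (95% interval -0.36 to 0.41). Ndufs8, a core iron-sulfur subunit, measured 11.90, 11.83 and 11.67 in controls and 11.62, 11.61 and 11.50 in the knockdown. Every knockdown array lay below every control array there, by a difference of -0.23 (SE 0.17) that did not pass (limma adjusted p = 0.761). Ndufs1, the largest core subunit, was not above background on any array, and Ndufab1, the acyl carrier protein of complex I, was not either.

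The accessory subunits of complex I surround the core and hold the enzyme together. Those of the NADH module were 5 of 5 tested, with a median difference of 0.03, and those of the quinone module 4 of 4, with a median of 0.05. In the membrane arm 17 of 18 were tested, with a median of -0.03. Ndufb5, a membrane-arm subunit, measured 8.56, 8.39 and 8.66 in controls and 8.60, 8.73 and 8.88 in the knockdown. The groups overlapped, with a difference of 0.20 (SE 0.18). Ndufb10, another membrane-arm subunit, had a difference of 0.18 with an SE of 0.76 and a 95% interval of -1.61 to 1.96. With the replicate block the SE was 0.16 and the interval -0.22 to 0.57. A probe annotated to Ndufs5-ps, a pseudogene of the accessory subunit gene Ndufs5, had a difference of -0.27 (SE 0.18), and signal from the parent transcript cannot be told apart from it.

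The 5 assembly factors of complex I listed were all tested, with a median of -0.31. Ndufaf1, a chaperone of the membrane-arm intermediate, measured 10.09, 10.26 and 10.67 in controls and 9.26, 9.82 and 10.39 in the knockdown. Each knockdown array lay below the control array of its own number, by -0.83, -0.44 and -0.28, while the groups overlapped. Its difference was -0.52 (SE 0.31, limma adjusted p = 0.673, and 0.139 with the replicate block). Ndufaf7, a methyltransferase that modifies a core subunit during assembly, had a difference of -0.37 (SE 0.25). Ndufaf5, which hydroxylates a core subunit during assembly, had one of -0.31 (SE 0.20). Its other tested probe gave -0.10. Ndufaf3, an early assembly factor, measured 4.90, 5.03 and 6.23 in controls and 5.97, 5.04 and 6.47 in the knockdown. It was above background on 1 control and 3 knockdown arrays, so its difference of 0.44 (SE 0.47) is taken largely against background.

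Complex II is the enzyme that the citric acid cycle and the respiratory chain share. All 7 of its genes listed were tested, with 3 differences above 0 and 4 below, a median of -0.09 and a range of -0.28 to 0.35. Among the subunits, the iron-sulfur protein Sdhb had a difference of -0.09 (SE 0.19). The membrane anchors Sdhc and Sdhd had differences of -0.16 (SE 0.18) and 0.12 (SE 0.28). Sdhaf1, which helps insert the iron-sulfur clusters of Sdhb, measured 9.16, 9.05 and 9.07 in controls and 9.43, 9.46 and 9.45 in the knockdown. Each knockdown array was above each control array, and the replicates lay close together. The difference was 0.35 (SE 0.16, 95% interval -0.02 to 0.72), with a limma adjusted p of 0.507. Sdhaf4, which acts on the flavin-carrying subunit, measured 10.66, 10.70 and 11.41 in controls and 10.56, 10.69 and 10.69 in the knockdown. Its difference of -0.28 (SE 0.24) came with 1 control array above the other 5, and without control replicate 3 it was -0.04. Sdhaf3, a partner of Sdhaf1 in assembly, had a difference of -0.16 (SE 0.18), and Sdhaf2, which helps attach the flavin, one of 0.05 (SE 0.19).

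Complex III had 6 of 8 listed genes tested, with differences of -0.08 to 0.26 (3 above 0, 3 below, median 0.02). The core proteins Uqcrc1 and Uqcrc2 had differences of -0.08 (SE 0.18) and -0.06 (SE 0.22). Uqcr11, Uqcrh and Uqcr10, all small subunits, had differences of -0.02, 0.06 and 0.06, with SEs of 0.16 to 0.17. Uqcrb, the subunit that binds near the quinone site, measured 9.94, 9.77 and 11.02 in controls and 10.19, 10.19 and 11.13 in the knockdown. Each knockdown array lay above the control array of its number, while both replicate 3 arrays stood apart from the other 4. The difference was 0.26 (SE 0.40). Uqcrfs1, the Rieske iron-sulfur protein, was above background on 1 array, and Uqcrq on 0 arrays.

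Complex IV reduces oxygen to water. Of 19 listed genes 16 were tested, with 6 differences above 0, 10 below, a median of -0.04 and a range of -1.23 to 0.49. The 11 ubiquitous subunits, used in most tissues, were all tested and had a median of -0.01 (range -0.33 to 0.15). Ndufa4, named for complex I and placed in complex IV, had a difference of 0.03 (SE 0.16). Cox5b, which binds zinc, had a difference of 0.15 (SE 0.17), and Cox6b1, which faces the space between the membranes, one of 0.14 (SE 0.18). Cox6c, a small membrane subunit, measured 11.19, 11.19 and 11.91 in controls and 10.78, 11.03 and 11.47 in the knockdown. Each knockdown array was below the control array of its number, while the groups overlapped, and the difference was -0.33 (SE 0.28).

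The tissue isoforms and paralogs of complex IV held the 3 widest differences of the complex. Of 8 listed genes 5 were tested, with a median of -0.24. Cox7b2 and Cox8b were above background on 0 arrays and Cox4i2, the lung isoform, on 1. Cox8c, the testis-type isoform, measured 6.99, 6.86 and 6.70 in controls and 5.62, 5.24 and 6.01 in the knockdown. The groups did not overlap, and the knockdown array nearest the controls was replicate 3. Before normalization, the Cox8c signals of replicate 3 were nearly equal, at 286 in the control and 285 in the knockdown. Control and knockdown means were 6.85 ± 0.14 (SD, n = 3) and 5.62 ± 0.39 (SD, n = 3), a difference of -1.23 with a 95% interval of -1.78 to -0.67. In limma the adjusted p was 0.132, and the replicate block brought it to 0.0525. Over the alternatives tried the difference stayed below 0 in 25 of 25, from -1.57 to -0.47, and it passed in 8 of them. Without knockdown replicate 3 the difference was -1.42 and the limma adjusted p 0.0489.

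Cox6a2, the heart and muscle isoform, measured 6.03, 5.83 and 5.57 in controls and 4.68, 5.74 and 4.52 in the knockdown. Knockdown replicate 2 lay among the controls and the other knockdown arrays below them. The gene was above background on 3 control arrays and 1 knockdown array, and the difference was -0.83 (SE 0.34, limma adjusted p = 0.448). Cox6b2, the testis isoform of Cox6b1, measured 8.93, 8.78 and 8.73 in controls and 9.33, 9.64 and 8.94 in the knockdown. The lowest knockdown array was just above the highest control array. The knockdown mean was 140% of the control mean, a difference of 0.49 (SE 0.22) with a limma adjusted p of 0.507. Cox7a1, the heart and muscle isoform, measured 10.57, 10.69 and 9.45 in controls and 10.02, 10.23 and 9.76 in the knockdown. Replicate 3 was lowest in both groups, and the difference was -0.24 (SE 0.35). It was -0.63 without control replicate 3 and -0.0090 without control replicate 2. Cox7a2l, a paralog that takes part in joining complexes III and IV into supercomplexes, had a difference of -0.03 (95% interval -0.40 to 0.35).

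Of 9 striated muscle and heart markers, 5 or 6 were detected on each array. Myh6, Myl2 and Acta1 were detected on 6 arrays, Actc1, Myl7 and Mb on 5, Tnni3 on 1, and Myh7 and Ckm on 0. The 6 of them that were tested had summed log2 levels of 39.0, 38.5 and 33.9 in controls and 35.7, 37.6 and 34.4 in the knockdown. The part of these markers in the values of Cox6a2 and Cox7a1 was not tested.

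**Figure D3:**
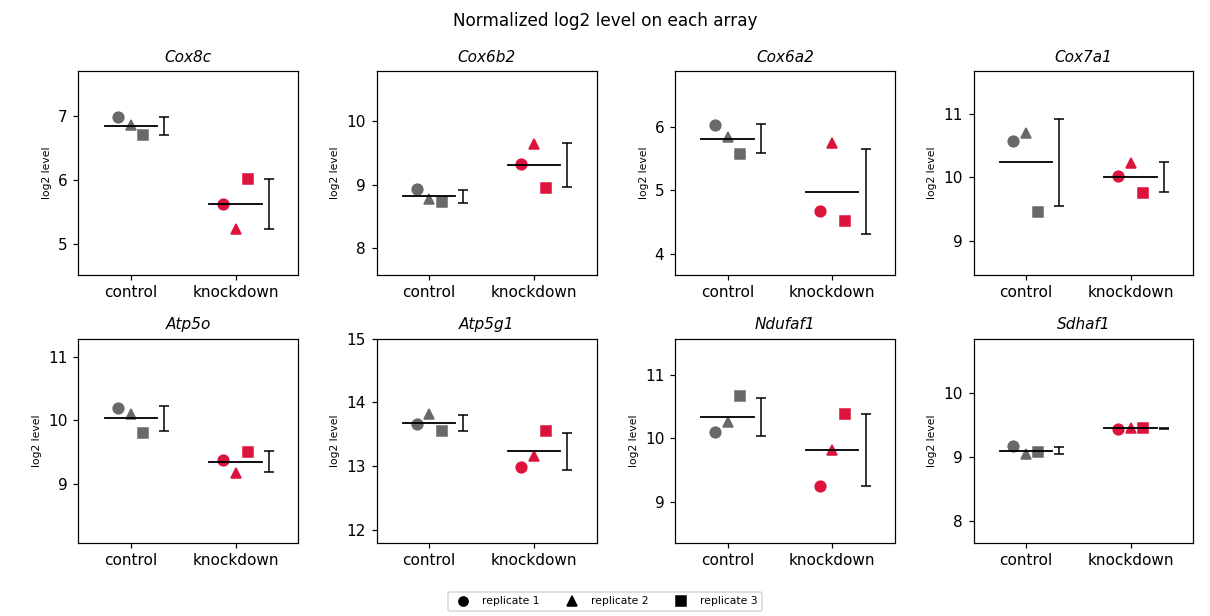
Normalized log2 level (vertical axis) of single genes on each of the 6 arrays, with control and knockdown side by side, point shapes for the replicate number, a bar at each group mean and an error bar of 1 SD beside it. The groups are apart in Cox8c, with controls at 6.70 to 6.99 and the knockdown at 5.24 to 6.01.

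The promoters of a common subunit and of its testis isoform are shown for Cox6b1 and Cox6b2, since their differences of 0.14 and 0.49 come from paralogous genes. Cox6a1 is shown as a promoter that carries 2 of the motifs searched. The windows run from 250 bases before to 50 bases after the RefSeq start (GRCm38.p6) and read 5′ to 3′ on the gene's strand, which is the minus strand for all of these. Capitals mark a match on either strand to GCATGCGC, the core of the site of the mitochondrial regulator NRF1, or to CCGGAAG, an ETS family site. Also searched was AAGATGG, a YY1 site, without a match in these windows. The windows are chr7:30626065-30626364 for Cox6b1, chr7:4753045-4753344 for Cox6b2 and chr5:115348909-115349208 for Cox6a1.
Cox6b1: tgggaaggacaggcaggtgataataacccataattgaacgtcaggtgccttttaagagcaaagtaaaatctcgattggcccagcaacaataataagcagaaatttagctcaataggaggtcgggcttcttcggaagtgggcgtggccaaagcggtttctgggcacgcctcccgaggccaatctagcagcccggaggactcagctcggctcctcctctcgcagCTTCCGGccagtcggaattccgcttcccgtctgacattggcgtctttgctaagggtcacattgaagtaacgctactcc
Cox6b2: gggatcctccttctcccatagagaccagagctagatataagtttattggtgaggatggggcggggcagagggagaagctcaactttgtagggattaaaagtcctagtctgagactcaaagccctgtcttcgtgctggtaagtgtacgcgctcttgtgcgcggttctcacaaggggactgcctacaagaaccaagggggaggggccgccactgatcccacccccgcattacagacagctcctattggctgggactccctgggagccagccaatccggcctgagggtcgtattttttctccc
Cox6a1: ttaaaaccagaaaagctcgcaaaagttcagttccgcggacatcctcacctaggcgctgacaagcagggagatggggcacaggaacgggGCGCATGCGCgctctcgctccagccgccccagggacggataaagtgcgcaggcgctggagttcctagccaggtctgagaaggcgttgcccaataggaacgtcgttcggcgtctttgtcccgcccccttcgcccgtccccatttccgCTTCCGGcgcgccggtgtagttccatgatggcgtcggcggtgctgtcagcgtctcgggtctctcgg
Cox6b1 held 1 ETS match and 17 CpG dinucleotides. Cox6b2 held none of the 3 motifs and 10 CpGs. Cox6a1 held 2 overlapping NRF1 matches, 1 ETS match and 32 CpGs. Windows were used for 74 of the 89 genes, Cox8c and Cox6a2 not among them. Of the 74, 11 (14.9%) held the NRF1 core in any window of the gene, against 3.05% of 27025 mouse genes with windows of the same length. The ETS site was in 20 (27.0%), against 9.93%, and the YY1 site in 11 (14.9%), against 7.28%. Taking for each gene its window with the most CpGs, the median was 19 CpGs in these genes and 8 in all. These matches describe the letters of the windows and say nothing of binding.

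ATP synthase turns the proton gradient into ATP. Of its 16 listed genes 15 were tested, with 7 differences above 0, 8 below, a median of -0.004 and a range of -0.68 to 0.30. In the catalytic head all 5 subunits were tested, with a median of 0.03. Atp5b, the catalytic subunit, measured 15.04, 15.05 and 14.94 in controls and 15.01, 15.05 and 15.01 in the knockdown, and the groups overlapped. Its raw signal of 30429 to 36997 was 83.1% to 93.2% of the highest signal on its array, near the top of the range, which limits what this probe can show of a change. Atp5a1, the partner of Atp5b in the head, had a difference of 0.09 (SE 0.17). Atp5e, the smallest subunit of the head, measured 5.69, 5.68 and 5.83 in controls and 6.07, 5.98 and 6.04 in the knockdown. Its groups were apart, with a difference of 0.30 (SE 0.16, limma adjusted p = 0.617).

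In the stalk and membrane part of ATP synthase 10 of 11 listed genes were tested, with a median of -0.05 (range -0.68 to 0.07). Atp5o measured 10.19, 10.10 and 9.81 in controls and 9.37, 9.18 and 9.50 in the knockdown. The groups did not overlap, and the replicate 3 arrays were the nearest to each other. The knockdown mean was 62.4% of the control mean, a difference of -0.68 (95% interval -1.13 to -0.23), with a limma adjusted p of 0.259 and 0.0952 with the replicate block. The difference lay between -0.87 and -0.56 in 25 alternatives and passed in 6. Its promoter window, chr16:91931581-91931880 on the minus strand, is shown because it is the ATP synthase gene with the widest difference. It held none of the 3 motifs and 22 CpGs.
Atp5o: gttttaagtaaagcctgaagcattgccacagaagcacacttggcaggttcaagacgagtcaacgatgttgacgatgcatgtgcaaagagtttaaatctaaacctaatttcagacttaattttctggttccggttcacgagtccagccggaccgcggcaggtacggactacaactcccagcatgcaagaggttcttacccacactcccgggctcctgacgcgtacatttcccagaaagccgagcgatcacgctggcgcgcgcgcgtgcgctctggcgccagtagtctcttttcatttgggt
Atp5g1, Atp5g2 and Atp5g3 encode the same mature protein of the rotating membrane ring from separate genes. Atp5g1 measured 13.66, 13.81 and 13.56 in controls and 12.99, 13.16 and 13.55 in the knockdown. Replicates 1 and 2 of the knockdown lay well below the controls and replicate 3 next to the lowest of them. The difference was -0.44 (SE 0.21, limma adjusted p = 0.530). Atp5g2 had a difference of -0.30 (SE 0.23) and Atp5g3 one of 0.01 (SE 0.16). Atp5h, a stator stalk subunit, had a difference of -0.33 (SE 0.30), with knockdown replicate 2 the lowest array at 10.56. Atp5j, the coupling factor of the stalk, had one of 0.07 (SE 0.18), and its other tested probe gave 0.26. Atp5k, a small membrane subunit, was above background on 0 arrays.

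The replicate number separated some of these genes more than the knockdown did. In limma's F test over replicate numbers 4 of 81 genes (4.94%) passed at adjusted p under 0.05, where 13.0% of all genes tested passed. These were Ndufb10, Ndufb3, Ndufb7 and Uqcrb, of which the first 3 are membrane-arm subunits of complex I, and all 4 were higher on both replicate 3 arrays. Ndufb10 measured 7.13, 7.91 and 9.62 in controls and 7.62, 7.81 and 9.76 in the knockdown (adjusted p = 0.0183). Ndufb3 measured 10.67, 10.41 and 11.74 in controls and 10.65, 10.43 and 11.65 in the knockdown (adjusted p = 0.0219). Replicate 3 exceeded the mean of replicates 1 and 2 by 2.07 in Ndufb10 and 1.16 in Ndufb3, while same-numbered control and knockdown arrays lay close. Uqcrb and Ndufb7 exceeded it by 1.05 and 0.97, with adjusted p of 0.0259 and 0.0305. The count depends on the probe, since the other tested probes of Ndufb6 and Atp5j also passed (F test adjusted p = 0.0318 and 0.0440, against 0.912 and 0.359 for the probes used).

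Over all 81 genes, both replicate 3 arrays lay above the other 4 in 24 genes (29.6%, all genes 21.7%) and below them in 20 (24.7%, all genes 25.2%). Before normalization, the median signal of these genes was 2639 to 3197 on the arrays of replicates 1 and 2, 5728 in control replicate 3 and 7149 in knockdown replicate 3. The endoderm markers and array signals that set replicate 3 apart are given above, and their part in these values was not tested. By replicate pair, the median difference of the 81 genes was -0.07, -0.03 and 0.02 in pairs 1, 2 and 3, with 29, 32 and 46 genes above 0. Over all genes the pair medians were 0.02, 0.03 and 0.01.

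**Figure D4:**
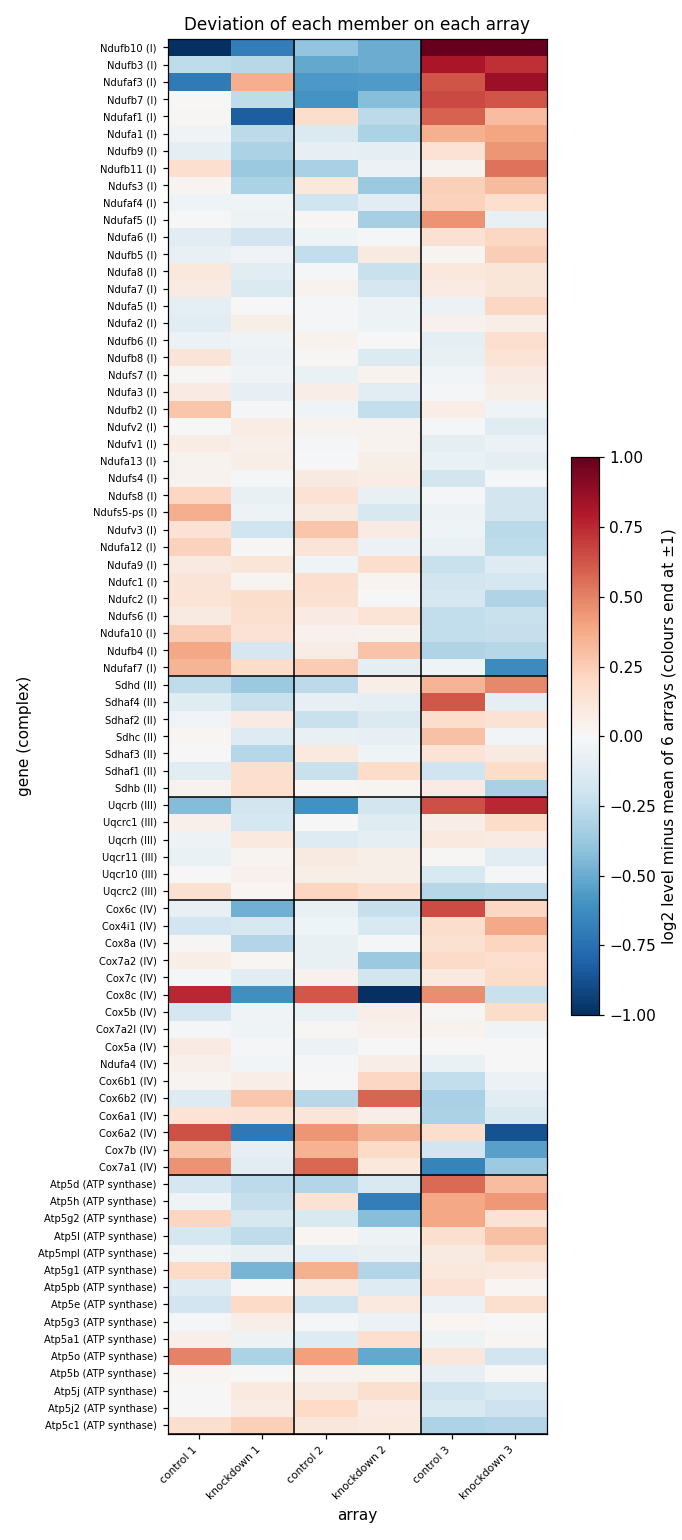
Log2 level of each oxidative phosphorylation gene on each of the 6 arrays, as the deviation from the gene's mean over the arrays (colour scale), grouped by complex, with the arrays ordered by replicate number. Ndufb10, Ndufb3, Uqcrb and Ndufb7 are high on both replicate 3 arrays, and Cox8c is lower on the knockdown arrays.

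Genes that work with the chain but carry other symbols gave the same count, with none passing in limma with or without the block. Of 9 further respiratory genes 7 were tested (3 above 0, 4 below, median -0.03). The smallest p among them were those of Dhodh, which feeds electrons to ubiquinone from pyrimidine synthesis (-0.20, SE 0.19), and of Cycs, cytochrome c (0.22, SE 0.29). Of 10 ubiquinone synthesis genes 9 were tested (2 above 0, 7 below, median -0.07), with Coq4 at 0.46 (SE 0.32) and Coq9 at -0.32 (SE 0.26). Of 8 carriers of nucleotides and phosphate and their outer-membrane channels 5 were tested (2 above 0, 3 below, median -0.15). Vdac3, an outer-membrane channel, had a difference of -0.28 (SE 0.18), and Vdac1, another such channel, one of -0.15 (SE 0.18).

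Of 30 assembly factors outside the symbol rule 26 were tested, with 8 differences above 0, 18 below and a median of -0.08. Cox20, a chaperone of a mitochondrially encoded complex IV subunit, measured 7.15, 7.10 and 7.66 in controls and 8.10, 8.01 and 8.33 in the knockdown. Every knockdown array was above every control array, at 179% of the control mean. The difference was 0.84 (SE 0.22), with a limma adjusted p of 0.230 and 0.0514 with the block. Taco1, an activator of the translation of another complex IV subunit, had a difference of -0.37 (SE 0.19, adjusted p = 0.601).

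The regulators of mitochondrial biogenesis were 18 of 21 tested (7 above 0, 11 below, median -0.10). Tsfm, an elongation factor of mitochondrial translation, measured 10.50, 10.38 and 10.49 in controls and 9.96, 10.02 and 9.89 in the knockdown. Its groups were apart and its replicates close, with a difference of -0.50 (SE 0.16, limma adjusted p = 0.328). Nrf1, which encodes the regulator whose site was searched above, measured 9.00, 8.71 and 9.05 in controls and 9.79, 9.55 and 9.10 in the knockdown. Knockdown replicate 3 was just above the highest control, and the difference was 0.56 (SE 0.23, adjusted p = 0.451).

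The citric acid cycle and pyruvate dehydrogenase genes were 19 of 22 tested, with 4 differences above 0, 15 below and a median of -0.19. Pdk1, the kinase that switches pyruvate dehydrogenase off, measured 9.88, 10.11 and 9.99 in controls and 9.23, 9.59 and 9.33 in the knockdown. Its groups did not overlap, at a difference of -0.61 (SE 0.18, limma adjusted p = 0.288). Pdha1, the catalytic subunit that Pdk1 phosphorylates, had means of 11.98 ± 0.02 and 12.33 ± 0.15 (SD, n = 3 each) on the control and knockdown arrays. It was higher on each knockdown array, at a difference of 0.35 (SE 0.17, adjusted p = 0.546).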

How the data were processed

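Per the file headers, the authors deposited for each array a probe signal, which is a linear intensity without background subtraction, and a detection p-value. The submitters' processing notes list GenomeStudio 2011.1 without saying what it did. The authors also deposited their own processed intensity (column means near 538.3 to 538.6, medians 14.6 to 19.2), used only as an alternative.

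With limma 3.58.1 in R 4.3.3, the neqc procedure was applied: normexp background correction using the detection p-values with an offset of 16, quantile normalization, then log2. Tested were 13064 of 25697 probes (50.8%), those whose detection p was under 0.05 on 3 arrays or more. A single symbol was given for 23978 probes and none for 1719, and the mouse table of GRCm38.p6 updated 23962 by Entrez identifier, which changed no symbol of the genes described. Where a gene had several tested probes, the brightest on average was used. Promoter windows are RefSeq's, and no coordinates are given for probes.

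Groups were compared with lmFit and eBayes, and p-values were adjusted by Benjamini-Hochberg across all 13064 probes, with calls made under 0.05. SE is the moderated standard error. Replicate numbers from the titles were taken as pairing the arrays, since deviations of same-numbered arrays from their group means correlated. The values were 0.44, 0.53 and 0.70 over the 9015 genes tested, each above 0.1. However, control 1 correlated best with knockdown 2 (0.47), and control 2 with knockdown 1 at 0.37. The numbers thus set replicate 3 apart more clearly than replicates 1 and 2 from each other. On simulated data for this comparison, with 13064 probes, the fit recovered 96% of 100 probes changed by 2 on the log2 scale and 100% of 100 changed by 3. Among the unchanged probes 12 passed. The simulated noise held no replicate effect, and smaller changes were not simulated. The simulation therefore gives no measure of power for differences of the size described here. The number of arrays limits the precision.

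Named genes are those with the 3 largest positive and 3 largest negative differences in each complex, the tissue isoforms, the 3 smallest p over replicate numbers, and the 2 smallest p in each other list. Ndufv1, Ndufs8, Ndufa4, Ndufb7, Sdhb, Cox4i1, Atp5b, Atp5g2, Atp5g3, Ndufs5-ps and the genes below background were named after their values were seen. So were Ndufv3, Ndufb6 and Ndufs4, named for the differences between their probes. The genes and lists were chosen with earlier results of these data known. Alternatives covered background correction, scaling, the authors' values, filters, the variance model, array weights, the treatment of several probes, the replicate block and leaving out arrays.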

Additional observations from a re-analysis of the deposited data

How the results depend on the processing

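With 3 arrays per group, the count of genes passing for knockdown against control was 0, and 0 again with the replicate block. It was 3 with array weights, 0 to 1 when each array was left out in turn, 2 with replicates 1 and 2 only, and 0 to 2 in the block fit when each replicate number was left out. In fits that joined the block with another choice, chosen after seeing the data, it was 3 without background correction, 4 with a variance trend, 1 with probes detected on all 6 arrays and 2 with array weights. Every gene that passed was lower in the knockdown, from among Cox8c, Atp5o, Atp5g1 and Ndufaf1. The cause was not tested. Over all genes tested, 0.0776% passed in the main fit, 1.95% with the block and 13.0% in the F test. The share of all genes is not given for the alternatives, including those of the F test below. Their counts therefore cannot be set against the rest of the genes. The median difference was -0.13 with median scaling and lay between -0.089 and -0.012 when each array was left out. Baz2a moved to -1.81 with array weights (adjusted p = 0.0182) and lay between -1.94 and -1.18 when each array was left out. The F test over replicate numbers passed 4 genes, against 17 without background correction, 7 with probes detected on all 6 arrays and 23 with a variance trend. Several differences near 0 changed sign: with median scaling Atp5j to -0.039, Cox5b to -0.01, Uqcrh to -0.059 and Uqcr10 to -0.14, with the authors' values Uqcr10 to -0.047, with the mean of probes Uqcr10 to -0.0067, with array weights Uqcr11 to 0.040, with replicates 1 and 2 only Uqcr11 to 0.033, with the block and array weights Uqcr11 to 0.00011, and in the block fits that left out a replicate number Uqcr11 to 0.033 and Atp5a1 to -0.01. When each array was left out in turn, the ranges that crossed 0 were -0.51 to 0.88 for Ndufb10, -0.40 to 0.37 for Ndufb3, -0.053 to 0.65 for Uqcrb, -0.093 to 0.33 for Sdhd, -0.047 to 0.15 for Sdhaf2, -0.21 to 0.061 for Uqcrc2, -0.058 to 0.033 for Uqcr11, -0.010 to 0.16 for Atp5j and -0.0012 to 0.10 for Uqcr10. Without crossing 0, the range was -0.63 to -0.0090 for Cox7a1, -0.62 to -0.064 for Atp5h, -0.52 to -0.094 for Cox6c and -0.80 to -0.24 for Ndufaf1. Of the named genes' other values under an alternative, 776 kept their sign and their side of the threshold and 18 kept their sign and passed.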

Other observations

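Of the 81 genes, 12 had several tested probes, and in 5 of them every probe lay within 0.1 of the one used. Ndufv3, an accessory subunit of complex I, was the widest apart, with -0.26 for the brightest probe and 0.19 and -0.40 for the others. Ndufb6 had 0.08 against -0.16. Ndufs4 had 0.03 against 0.01, -0.10 and -0.16. Uqcr10 had 0.06 against -0.07.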
